A study of Mus musculus with 36 samples.

Results

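The transcripts of 10 genes of the hypoxia response were followed in mouse liver: the HIF prolyl hydroxylases *Egln1*, *Egln2* and *Egln3*, the HIF asparaginyl hydroxylase *Hif1an*, the transcription factor subunit *Hif1a*, and 5 genes induced by HIF in many tissues, namely *Vegfa*, *Hk2*, *Bnip3*, *Slc2a1* and *Pfkfb3*. They were taken by symbol from a table of 36066 genes, and all 10 were found, were above the filter on low values in both sexes and were tested.

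Hypoxia inducible factors are dimers of an oxygen-labile alpha subunit, encoded by *Hif1a* or *Epas1*, and a stable partner. In the presence of oxygen the EGLN enzymes (also called PHD proteins) hydroxylate prolines of the alpha subunit, which is then bound by the VHL ubiquitin ligase and degraded, whereas the HIF1AN enzyme (factor inhibiting HIF) hydroxylates an asparagine and thereby blocks the recruitment of coactivators. These enzymes use oxygen, oxoglutarate and ferrous iron, and ascorbate keeps the iron in its reduced form in the test tube, which is why vitamin C deficient tissues are of interest for this pathway. *Egln3* itself and the glycolytic, angiogenic and mitophagy genes of the set are known HIF targets in cultured cells. The control of HIF is largely exerted on the protein, which was not measured in the transcript table.

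Whole liver RNA of 36 mice aged 4 months was studied, with 3 mice in each of 12 groups, that is 6 treatments in females (F) and 6 in males (M). Mice lacking *Gulo* (*Gulo*-/-), the gene of the last enzyme of ascorbate synthesis, drank from weaning on water that held ascorbate at 0.4% in the GL40 groups, at 0.05% in the GL05 groups and at 0.01% in the GL01 groups. GL00 mice were *Gulo*-/- mice that had received 0.4% ascorbate until 3 months of age and none for their last 4 weeks, and GLR40 were *Gulo*-/- mice that lost ascorbate at 2 months of age for a month and then received 0.4% again until the end. Wild type *Gulo*+/+ mice of the same room (WT00), which make ascorbate, drank water without it. Every level below is that of a fasted liver, since food had been withdrawn the night before the livers were taken. The deletion is present in all cells of the animal and is carried by every group except WT00. Each mouse is a separate animal.

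Values are TPM, a transcript abundance that is scaled for transcript length and to a fixed sum in each mouse, so that TPM can be compared between genes but keep no record of read depth. Errors are SD over 3 mice unless another n is given. Groups were compared with limma on log2(TPM + 1) across all genes detected, and a gene was called higher or lower at a Benjamini-Hochberg adjusted p under 0.05, with adjustment over all genes tested. Log2 fold changes (log2FC) are on the log2(TPM + 1) scale, which understates the changes of genes near 1 TPM, and intervals are 95% intervals. *Gulo* lay at 225 to 269 TPM in FWT00 and 144 to 164 TPM in MWT00, against 16.4 to 52.2 TPM in the 30 *Gulo*-/- livers, and the 18 males had 15.1 to 29.1 TPM of the Y-linked *Ddx3y*, of which no female had more than 0.875 TPM. *Alb*, the hepatocyte albumin gene, had at least 37562 TPM in every mouse. The liver FGL40-2695 carried 9516 TPM of pancreatic acinar transcripts, against a median of 0.976 TPM over all mice. In bulk tissue, a change in the number of cells of a type and a change of RNA per cell cannot be told apart.

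The 250 bases upstream of the annotated starts of all 10 genes were found in the RefSeq annotation of build GRCm38.p6, which is older than the Ensembl release used for the TPM, and are shown for the 3 genes on which most of the results turn. Capitals mark the core letters of the hypoxia response element, ACGTG or GCGTG, read on either strand (CACGT or CACGC when on the other strand). The palindromic CACGTG counts as 2 overlapping matches. The sequences are written in the direction of transcription and end next to the start site.
Bnip3, chr7:138909507-138909756, minus strand: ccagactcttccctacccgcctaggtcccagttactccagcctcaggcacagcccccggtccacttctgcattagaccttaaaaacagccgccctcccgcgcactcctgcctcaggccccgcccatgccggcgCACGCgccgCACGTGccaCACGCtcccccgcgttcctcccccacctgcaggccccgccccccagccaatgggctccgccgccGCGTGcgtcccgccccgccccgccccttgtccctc
Egln3, chr12:54203875-54204124, minus strand: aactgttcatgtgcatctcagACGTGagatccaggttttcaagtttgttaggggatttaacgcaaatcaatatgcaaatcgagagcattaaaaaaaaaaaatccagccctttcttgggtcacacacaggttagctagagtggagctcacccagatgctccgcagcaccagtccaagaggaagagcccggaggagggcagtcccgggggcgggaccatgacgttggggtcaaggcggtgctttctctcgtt
Slc2a1, chr4:119108495-119108744, plus strand: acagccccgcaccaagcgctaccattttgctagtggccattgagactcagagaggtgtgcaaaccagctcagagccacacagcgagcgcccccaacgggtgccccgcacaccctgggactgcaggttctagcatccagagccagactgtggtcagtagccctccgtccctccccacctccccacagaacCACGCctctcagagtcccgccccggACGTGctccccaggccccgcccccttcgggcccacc
The *Bnip3* window held 5 matches, that of *Slc2a1* held 2 and that of *Egln3* held 1. The 10 genes have 13 annotated starts, and 11 of these 13 windows held at least 1 match, with none in the window of *Hif1an* and in that of the upstream start of *Vegfa*. The same letters occurred in 38.6% of the 32851 promoter windows of the annotation and in 54.6% of the 11936 windows of genes that averaged 1 TPM or more in these livers, and 3 or more matches occurred in 4 of the 13 windows, in 6.58% of all windows and in 11.5% of those of genes with at least 1 TPM. A match describes the letters only, since 250 bases leave out more distant sites and binding was not measured.

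The levels of the 10 genes spanned more than 2 orders of magnitude. Over the 36 mice *Bnip3* had a median of 204 TPM, *Vegfa* of 149 TPM and *Egln2* of 56.3 TPM, followed by *Egln1* at 15.1 TPM, *Hif1a* at 15.01 TPM, *Egln3* at 10.1 TPM, *Slc2a1* at 8.44 TPM, *Hif1an* at 8.12 TPM, *Pfkfb3* at 2.54 TPM and *Hk2* at 0.790 TPM. Among the prolyl hydroxylases, the *Egln2* transcript was thus the most abundant in every mouse, with a minimum of 48.2 TPM against maxima of 16.9 TPM for *Egln1* and 18.4 TPM for *Egln3*. The genes also differed in how much they moved. The highest mouse exceeded the lowest by 1.42-fold for *Hif1an*, 1.43-fold for *Hif1a*, 1.45-fold for *Egln1* and 1.49-fold for *Egln2*, but by 2.69-fold for *Bnip3*, 3.14-fold for *Egln3* and 6.12-fold for *Hk2*. The coefficient of variation among the 3 mice of a group had a median over the 12 groups of 5.39% for *Egln1*, 7.23% for *Bnip3*, 15.3% for *Egln3* and 29.8% for *Hk2*.

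**Figure D1:**
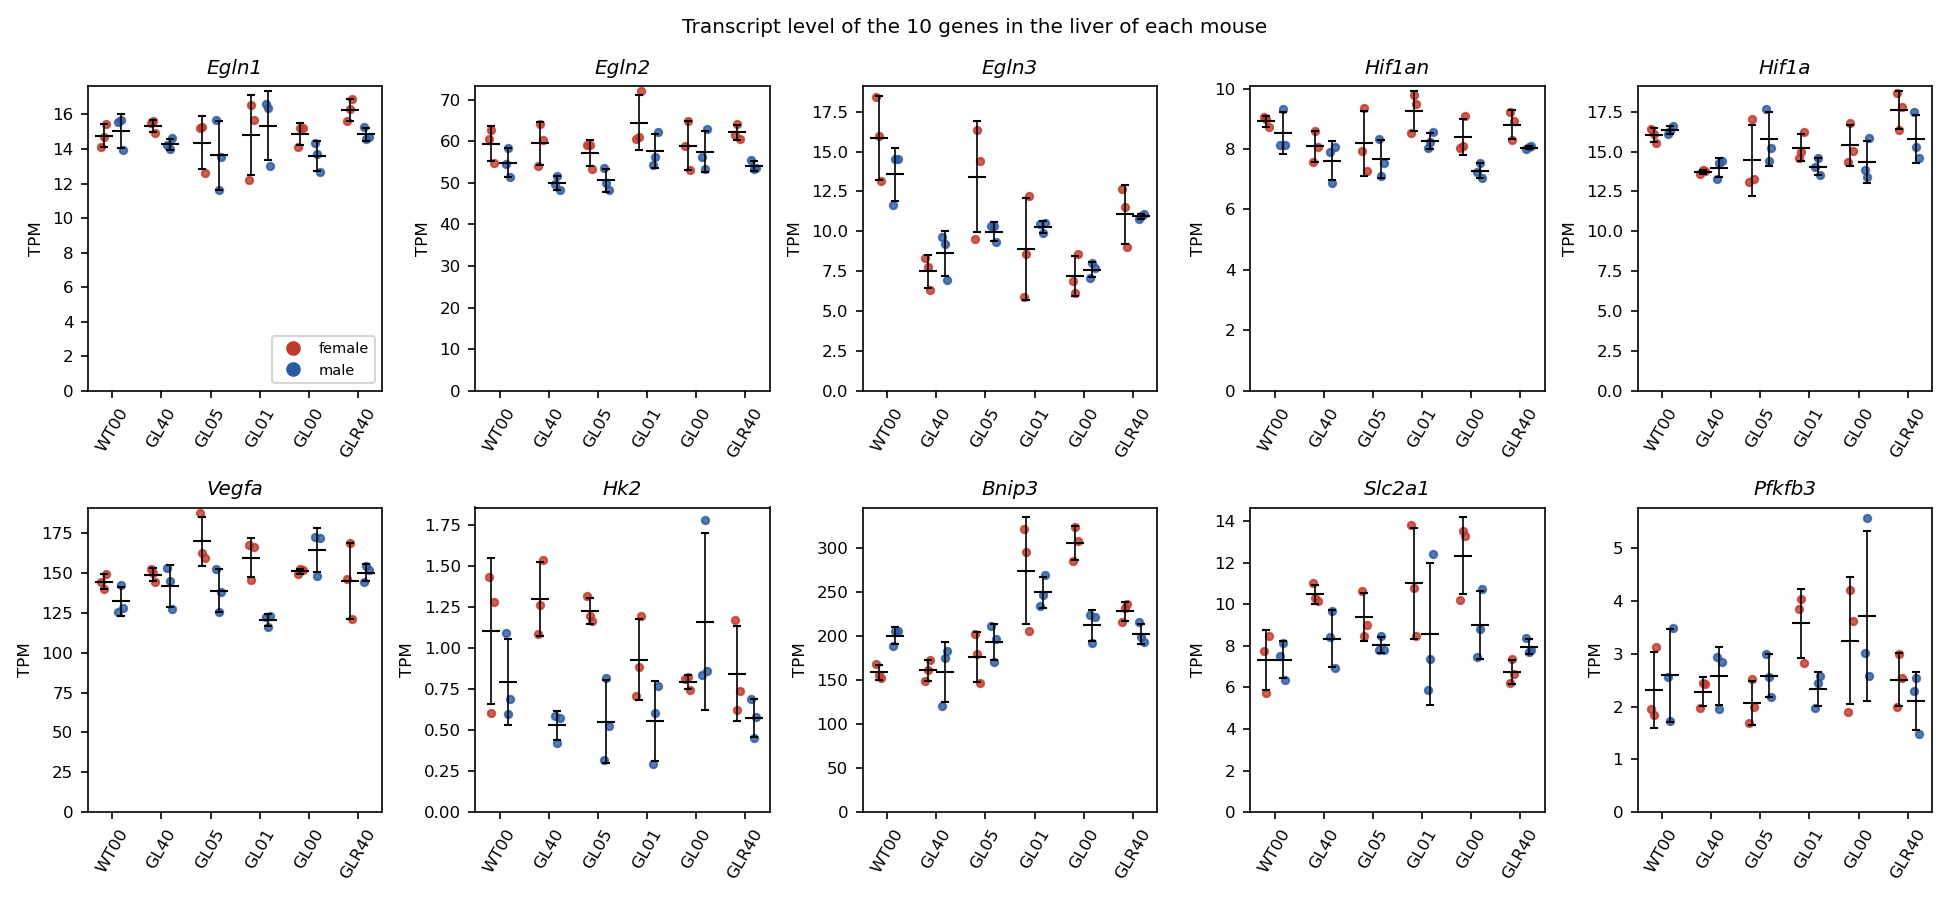
TPM of the 10 genes in each mouse, by treatment (x axis), with females in red and males in blue; horizontal ticks and bars are the mean and SD of 3 mice, and each panel starts at 0. By group mean, Bnip3 was highest in FGL00 (285 to 324 TPM) and Egln3 in the wild type groups (livers at 11.7 to 18.4 TPM). FGL05 overlapped with both wild type groups for Egln3 (9.54 to 16.3 TPM). Egln1, Egln2, Hif1an and Hif1a stayed within 1.5-fold over all 36 mice.

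The 6 groups were first compared at once within each sex. In females, *Bnip3* (adjusted p = 0.00045), *Slc2a1* (adjusted p = 0.00799) and *Egln3* (adjusted p = 0.00961) differed among the groups, that is 3 of the 10 genes, against 30.8% of the 18050 genes tested. In males, *Egln3* (adjusted p = 0.00413), *Vegfa* (adjusted p = 0.0382) and *Bnip3* (adjusted p = 0.0417) did, again 3 of 10, against 11.3% of the 17661 genes tested. Of the 18 fits that left out 1 male, 9 called *Egln3* alone (those without MGL00-2783, MGL00-2787, MGL01-2711, MGL01-2712, MGL05-2898, MGLR40-2828, MGLR40-2829, MGLR40-2831 or MWT00-2683). The other 4 hydroxylase and factor genes, *Egln1*, *Egln2*, *Hif1an* and *Hif1a*, were called in none of the 7 comparisons between treatments in either sex, and neither were *Hk2* and *Pfkfb3*.

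The hydroxylases that act on HIF in most cells were near their level with full ascorbate in GL00. *Egln1*, the principal prolyl hydroxylase in most tissues, had 14.1, 15.2 and 15.2 TPM in FGL00 and 15.5, 15.6 and 14.95 TPM in FGL40. In males it had 14.4, 13.7 and 12.7 TPM in MGL00 and 14.2, 13.99 and 14.6 TPM in MGL40. The groups overlapped in both sexes, with a log2FC of -0.04 in females (interval -0.26 to 0.17) and -0.07 in males (interval -0.29 to 0.15). *Egln2* had 58.9, 64.8 and 53.0 TPM in FGL00 and 54.0, 64.2 and 60.3 TPM in FGL40, with overlapping groups and a log2FC of -0.02 (interval -0.22 to 0.19). In males its 3 GL00 livers, at 56.3, 53.2 and 62.9 TPM, all lay above the GL40 livers, at 49.8, 51.6 and 48.2 TPM, but the log2FC of 0.20 (interval 0.04 to 0.36) missed the threshold (adjusted p = 0.102). The asparaginyl hydroxylase gene *Hif1an* differed by 0.05 in females (interval -0.15 to 0.25) and -0.05 in males (interval -0.23 to 0.12), between levels of 8.03 to 9.10 TPM in FGL00 and 7.57 to 8.61 TPM in FGL40, and of 7.05 to 7.55 TPM in MGL00 and 6.88 to 8.06 TPM in MGL40. All 6 intervals of these 3 genes lay between -0.29 and 0.36.

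*Egln3*, a prolyl hydroxylase gene that is itself induced by HIF, separated wild type livers from most livers of *Gulo*-/- mice. FWT00 had 18.4, 16.0 and 13.2 TPM and MWT00 had 11.7, 14.5 and 14.6 TPM. FGL00 had 6.87, 6.14 and 8.55 TPM and MGL00 had 7.08, 8.03 and 7.69 TPM. All wild type livers therefore lay above all GL00 livers of their sex. *Egln3* was lower in GL00 than in WT00 by a log2FC of -1.04 in females (SE 0.23, adjusted p = 0.00381) and -0.76 in males (SE 0.11, adjusted p = 0.000667), or 0.453 and 0.559 times the wild type mean.

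Against GL40 no such difference was called. FGL40 had 8.35, 7.79 and 6.31 TPM of *Egln3* and MGL40 had 9.66, 9.20 and 6.97 TPM, which overlapped with the GL00 livers in both sexes. The log2FC of GL00 over GL40 was -0.05 in females (interval -0.54 to 0.43, adjusted p = 0.900) and -0.15 in males (interval -0.38 to 0.08, adjusted p = 0.397). Compared with GL40, the wild type livers were higher in both sexes without overlap. In males the log2FC was 0.61 (SE 0.11, adjusted p = 0.0212), although the call was lost without MWT00-2682 (adjusted p = 0.136) or MWT00-2683 (adjusted p = 0.0792) and in a fit of only these 2 groups (adjusted p = 0.281). In females it was 0.99 (interval 0.51 to 1.47) but missed the threshold (adjusted p = 0.179).

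The remaining *Gulo*-/- groups were intermediate for *Egln3*. In males, MGL05 had 9.31 to 10.3 TPM, MGL01 9.87 to 10.6 TPM and MGLR40 10.8 to 11.1 TPM, all above the 3 MGL00 livers. MGLR40 was higher than MGL00 (log2FC 0.47, SE 0.11, adjusted p = 0.013), a call lost without MGL00-2783 (adjusted p = 0.0535). In females the spread was wider, with 9.54, 16.3 and 14.4 TPM in FGL05, 5.87, 8.55 and 12.2 TPM in FGL01, and 12.6, 11.5 and 9.04 TPM in FGLR40. FGLR40 lay above FGL00 without overlap (log2FC 0.56, interval 0.08 to 1.04), but the difference missed the threshold (adjusted p = 0.0900). The livers of FGL05 and FGLR40 also all lay above those of FGL40 (at most 8.35 TPM), whereas FGL01 overlapped with FGL40. Likewise, the livers of MGL01 and MGLR40 lay above those of MGL40 (at most 9.66 TPM), whereas MGL05 overlapped. None of these differences from GL40 was called, but a level above GL40 was thus not particular to the wild type livers. The 2 wild type groups and FGL05 had the highest means of the 12 groups, and FGL00, FGL40 and MGL00 the lowest. In the order of the 12 group means, only MGL01 and MGLR40 were neighbours without overlapping ranges. In both sexes together, *Egln3* did not differ between females and males beyond error (log2FC 0.01, interval -0.15 to 0.17).

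*Hif1a*, the gene of the oxygen-labile subunit, was called in no comparison. It had 14.3, 16.8 and 15.035 TPM in FGL00 and 13.6, 13.8 and 13.8 TPM in FGL40, and 13.8, 13.4 and 15.8 TPM in MGL00 and 13.3, 14.3 and 14.4 TPM in MGL40. The groups did not overlap in females and did in males, and the log2FC was 0.15 in females (interval -0.05 to 0.35, adjusted p = 0.285) and 0.03 in males (interval -0.15 to 0.22, adjusted p = 0.863). Its largest difference from GL40 was that of FGLR40, with 18.7, 16.3 and 17.8 TPM (log2FC 0.33, adjusted p = 0.0727). The wild type livers, at 15.5 to 16.4 TPM in FWT00 and 16.1 to 16.6 TPM in MWT00, also lay above the GL40 livers of their sex without overlap. In females the livers of FGL01 (14.6 to 16.2 TPM) lay above those of FGL40 too. In males the livers of MGL05 (14.44 to 17.7 TPM) and MGLR40 (14.6 to 17.5 TPM) lay above those of MGL40 as well. None of these differences was called.

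*Bnip3*, which encodes a mitochondrial receptor for mitophagy and is a classical HIF target, was higher in the livers with no or the lowest ascorbate supply. FGL00 had 285, 324 and 309 TPM and FGL40 had 149, 162 and 173 TPM. FGL01 had 322, 296 and 206 TPM. Every liver of FGL00 and FGL01 lay above all livers of FGL40 and of FWT00, which had 168, 156 and 152 TPM. The log2FC over FGL40 was 0.92 for FGL00 (SE 0.14, adjusted p = 0.000398) and 0.74 for FGL01 (SE 0.14, adjusted p = 0.00236), or 1.90 and 1.70 times the mean of FGL40, and that of FGL00 over FWT00 was 0.94 (SE 0.14, adjusted p = 0.000307). *Bnip3* was the only one of the 10 genes called for FGL00 over FGL40 and for FGL01 over FGL40, that is 10% of them, where 23.2% and 19.9% of all genes were called.

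FGL05, with 202, 180 and 147 TPM of *Bnip3*, overlapped with FGL40 and did not differ from it beyond error (log2FC 0.12, interval -0.18 to 0.42). FWT00 also overlapped with FGL40 (log2FC -0.02, interval -0.32 to 0.28). After ascorbate was given back, FGLR40 had 216, 232 and 236 TPM, below every FGL00 liver and above every FGL40 liver. The log2FC of FGLR40 over FGL00 was -0.42 (SE 0.14, adjusted p = 0.0438), but the call was lost on leaving out any 1 of the 6 mice (adjusted p = 0.0604 to 0.128). That of FGLR40 over FGL40 was 0.50 (interval 0.20 to 0.80) and missed the threshold (adjusted p = 0.0698).

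In males *Bnip3* was also higher in these groups, with a more scattered reference group. MGL40 had 120, 175 and 183 TPM, MGL00 had 223, 192 and 221 TPM and MGL01 had 235, 246 and 269 TPM. Both groups lay above MGL40 without overlap, with a log2FC of 0.67 for MGL01 (SE 0.13, adjusted p = 0.0127) and 0.43 for MGL00 (SE 0.13, adjusted p = 0.0401). The call for MGL00 was lost without MGL40-2690, the liver at 120 TPM (log2FC 0.24, adjusted p = 0.160), without MGL00-2783 (adjusted p = 0.117) and without MGL00-2787 (adjusted p = 0.120), and with median-ratio scaling (log2FC 0.29, adjusted p = 0.131). That for MGL01 was lost in a fit of only these 2 groups (adjusted p = 0.155). Of 12 Kupffer cell markers, 8 were higher and none lower in MGL00 than in MGL40 (summed levels 461 to 556 TPM against 290 to 384 TPM). For MGL01 over MGL40 none of 12 was called and the sum was 290 to 367 TPM. Of 10 hepatocyte markers, 2 were higher and none lower than in MGL40 in each of these groups. Their summed level was 100940 to 104420 TPM in MGL00, 92826 to 104270 TPM in MGL01 and 82066 to 92506 TPM in MGL40. The part of these cells in the *Bnip3* differences was not tested. MWT00, with 189, 206 and 206 TPM, overlapped with MGL00 (log2FC of MGL00 over MWT00 0.08, interval -0.19 to 0.36). MGL05 had 171 to 212 TPM and MGLR40 193 to 216 TPM. All MWT00 and MGLR40 livers thus lay above the MGL40 livers as well, so that in males a level above MGL40 was not particular to the groups with little ascorbate. *Bnip3* was again the only one of the 10 genes called for MGL00 over MGL40 and for MGL01 over MGL40, where 12.3% and 3.43% of all genes were called. The effect of removal did not differ between the sexes past the threshold (difference of log2FC, females minus males, 0.49, interval 0.09 to 0.89, adjusted p = 0.101), although it was called with median-ratio scaling and without MGL40-2690.

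Over the 12 groups *Bnip3* was lowest in FWT00 (mean 159 TPM), MGL40 (159 TPM) and FGL40 (161 TPM) and highest in MGL01 (250 TPM), FGL01 (274 TPM) and FGL00 (306 TPM). All neighbours in this order had overlapping ranges. Among 11510 annotated genes that averaged 1 TPM or more, the patterns most like that of *Bnip3* over the 36 mice were those of *Hipk3* (Pearson r 0.895), a protein kinase gene, *Pnpla2* (r 0.891), which encodes adipose triglyceride lipase, and *Zfp729a* (r 0.883), a zinc finger gene. These correlations include the differences between sexes and treatments and are given as a description.

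**Figure D2:**
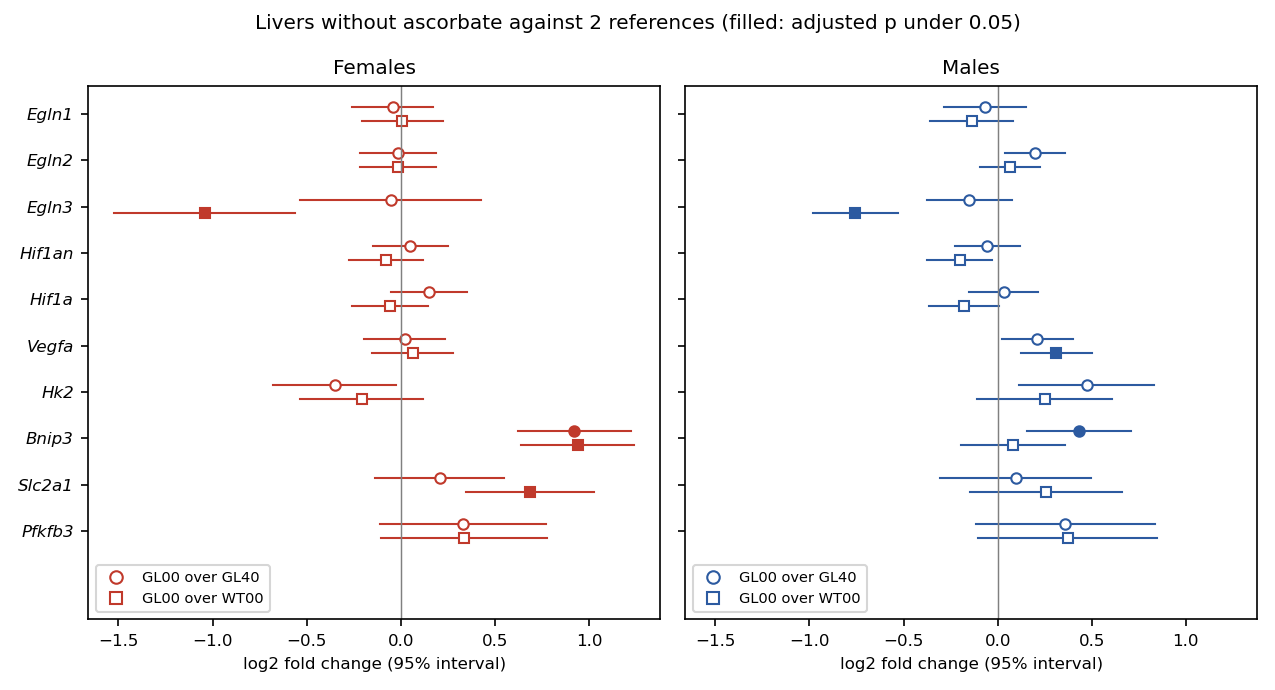
Log2 fold change (x axis) with its 95% interval for each of the 10 genes (y axis), for GL00 over GL40 (circles) and GL00 over WT00 (squares), in females (left) and males (right); filled symbols have an adjusted p under 0.05. Bnip3 was called against GL40 in both sexes (0.92 and 0.43) and Egln3 against WT00 in both sexes (-1.04 and -0.76), while both intervals of Egln1 included 0 in each sex.

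*Slc2a1*, the gene of the glucose transporter GLUT1, which is scarce in hepatocytes and abundant in blood cell precursors and endothelium of other organs, differed between groups of females. FGL00 had 10.2, 13.5 and 13.3 TPM and FWT00 had 7.76, 5.73 and 8.48 TPM. FGLR40 had 6.22, 7.36 and 6.63 TPM. All FGL00 livers lay above all livers of both groups. The log2FC was 0.69 for FGL00 over FWT00 (SE 0.16, adjusted p = 0.00617) and -0.78 for FGLR40 over FGL00 (SE 0.16, adjusted p = 0.00369). FGL40, with 11.015, 10.3 and 10.2 TPM, overlapped with FGL00 (log2FC 0.21, interval -0.13 to 0.55). The FGL40 livers also all lay above the livers of FWT00 and FGLR40. Neither difference was called, although that of FGLR40 over FGL40 was in a fit of only these 2 groups. A level above FWT00 and FGLR40 was thus not particular to FGL00. In FGL01 the 3 livers had 13.8, 10.8 and 8.46 TPM. In males no difference was called, and the intervals were wide (MGL00 over MGL40 0.10, interval -0.31 to 0.50; MGL00 over MWT00 0.26, interval -0.14 to 0.66).

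Blood cell transcripts moved with the same group of females. The summed level of the 8 erythroid markers in the table was 1933 to 3428 TPM in FGL00, 386 to 870 TPM in FWT00 and 454 to 534 TPM in FGLR40, and 5 of the 7 tested were higher and none lower in FGL00 than in FWT00. The summed level of the 10 neutrophil markers was 48.3 to 96.5 TPM in FGL00, 10.6 to 11.2 TPM in FWT00 and 9.58 to 15.6 TPM in FGLR40, and 6 of the 8 tested were higher and none lower in FGL00 than in FWT00. Of 10 sinusoidal endothelial markers, 2 were higher and 4 lower in FGL00 than in FWT00, and 3 were higher and 1 lower in FGLR40 than in FGL00. Of 12 Kupffer cell markers, 3 were higher and none lower in FGL00 than in FWT00, and 1 was lower in FGLR40 than in FGL00. In FGL40, where *Slc2a1* overlapped with FGL00, the erythroid sum was 627 to 754 TPM and the neutrophil sum 13.7 to 17.0 TPM. In FGL01, where *Bnip3* was also higher than in FGL40, none of the 7 erythroid markers was called and 3 of 8 neutrophil and 5 of 12 Kupffer cell markers were higher than in FGL40. The part of these cells in the *Slc2a1*, *Bnip3* and *Egln3* differences was not tested.

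**Figure D3:**
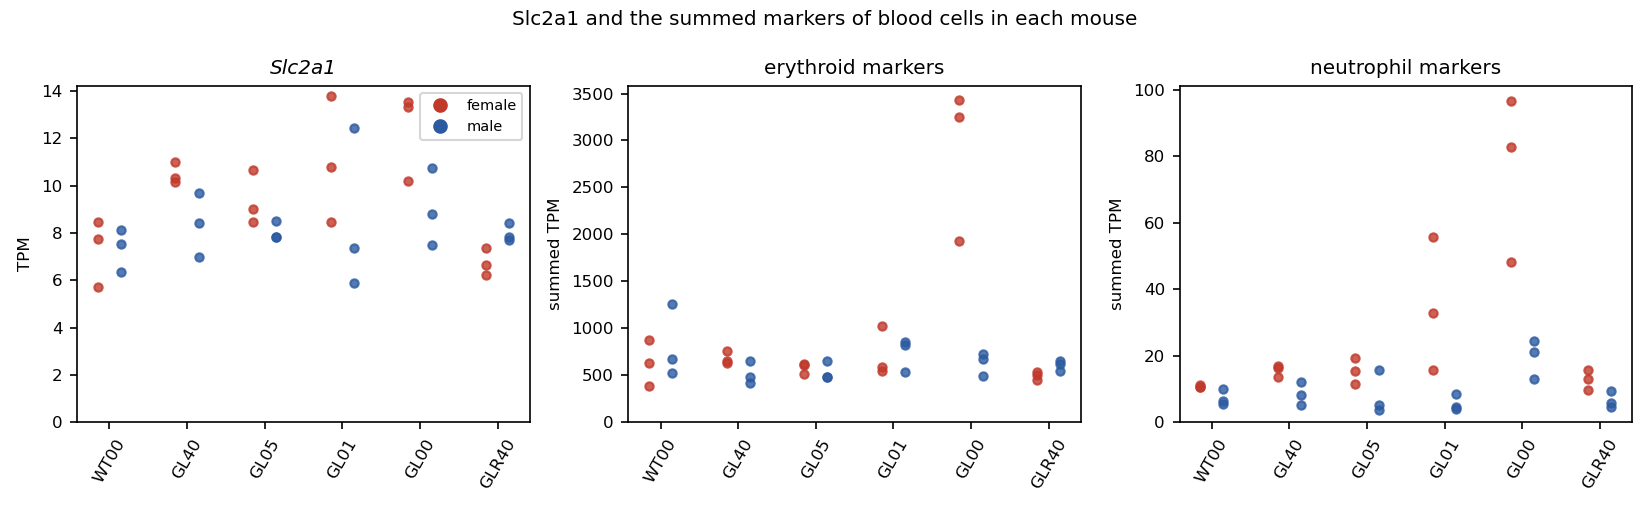
TPM of Slc2a1 (left) and summed TPM of the erythroid (middle) and neutrophil markers (right) in each mouse by treatment, females in red and males in blue, each axis from 0. The 3 FGL00 livers stood apart for the erythroid (1933 to 3428 TPM) markers. In FGL40, Slc2a1 was at 10.2 to 11.015 TPM and the erythroid sum at 627 to 754 TPM. The part of these cells in the Slc2a1 differences was not tested.

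Counted over the 10 genes, 3 were called for FGL00 over FWT00 (*Bnip3* and *Slc2a1* higher, *Egln3* lower) against 25.1% of all genes, and 2 for FGLR40 over FGL00 (*Bnip3* and *Slc2a1* lower) against 22% of all genes. In males 2 were called for MGL00 over MWT00 (*Vegfa* higher, *Egln3* lower) against 10.8%, 1 for MGLR40 over MGL00 (*Egln3*) against 9.13%, and 1 for MWT00 over MGL40 (*Egln3*) against 0.453%. The median log2FC of the 10 genes was 0.04 for FGL00 over FGL40 and 0.15 for MGL00 over MGL40, beside -0.02 and 0.07 for all genes tested. No member was called for FGL05, FGLR40 or FWT00 over FGL40, where limma called 0%, 2.27% and 0.183% of all genes and 1, 4 and 3 members had an unadjusted p under 0.05. None was called for MGL05 or MGLR40 over MGL40 either, where 0.0566% and 0.00566% of all genes were called and 1 and 2 members had an unadjusted p under 0.05. These comparisons share control groups, since GL40 and GL00 serve in several of them. A ratio of group means above 2 or its inverse was reached by 1 called difference, that of *Egln3* between FGL00 and FWT00.

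**Figure D4:**
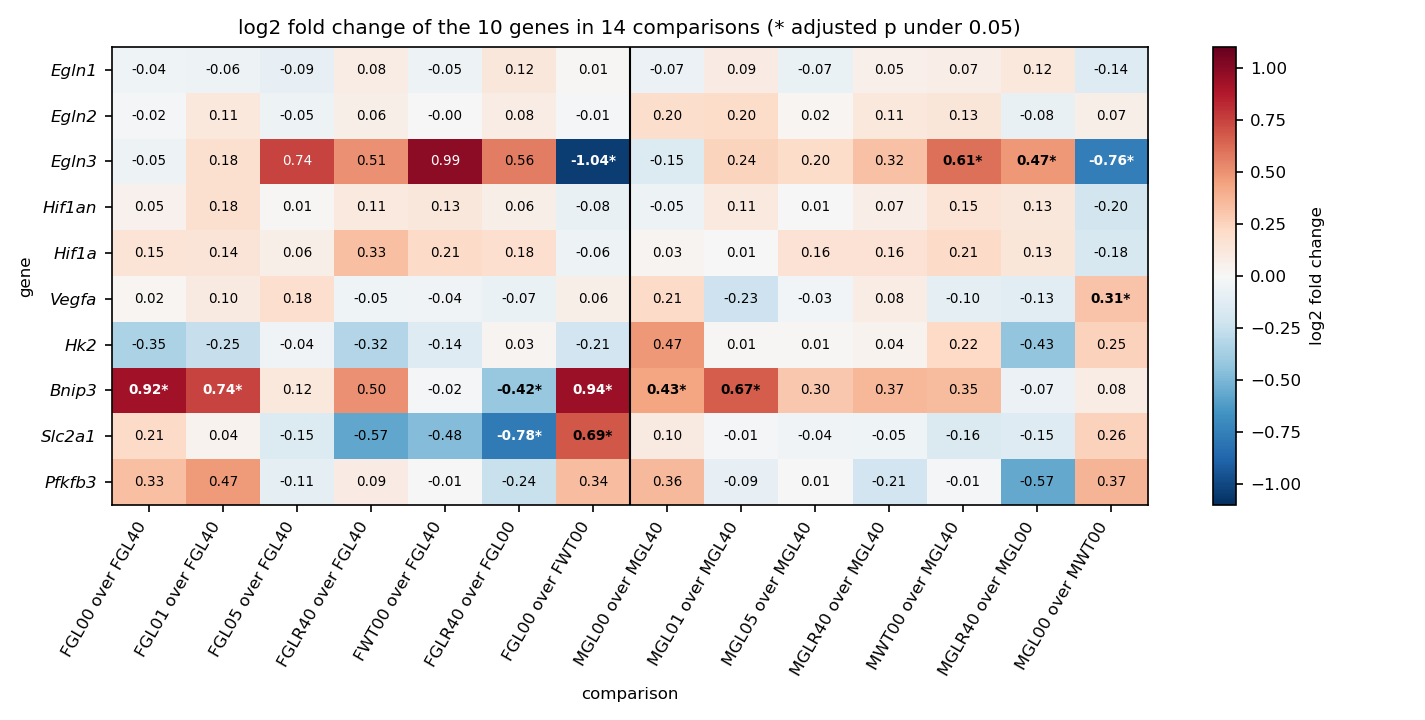
Log2 fold change of the 10 genes (rows) in the 14 comparisons between treatments (columns; 7 in females, then 7 in males), coloured from blue (lower) to red (higher); an asterisk marks an adjusted p under 0.05. The marked cells lie in the rows of Egln3, Vegfa, Bnip3 and Slc2a1, from -1.04 to 0.94.

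*Vegfa*, the gene of the main angiogenic growth factor, was abundant. In females it had 149, 152 and 152 TPM in FGL00 and 152, 150 and 144 TPM in FGL40, which overlapped (log2FC 0.02, interval -0.19 to 0.24). Over all females it ranged from 121 to 187 TPM, with the highest mean of the 12 groups in FGL05 (159 to 187 TPM) and the widest spread in FGLR40 (121 to 169 TPM). In males MGL00 had 173, 148 and 172 TPM, MWT00 126, 143 and 128 TPM, and MGL40 153, 145 and 128 TPM. MGL00 lay above MWT00 without overlap (log2FC 0.31, SE 0.09, adjusted p = 0.0353) and overlapped with MGL40 (log2FC 0.21, interval 0.02 to 0.40, adjusted p = 0.139). The call against wild type was lost in 4 of 6 fits that left out 1 mouse (without MGL00-2783, MGL00-2787, MWT00-2677 or MWT00-2683, adjusted p = 0.105 to 0.120) and in a fit of only these 2 groups (adjusted p = 0.0766). MGL01 had the lowest mean of all groups, at 122, 116 and 123 TPM, and its log2FC over MGL40 of -0.23 missed the threshold (adjusted p = 0.172). Kupffer cell markers moved in the same comparison of males, with 3 of 12 higher and none lower in MGL00 than in MWT00 and summed levels of 461 to 556 TPM and 303 to 421 TPM, and their part in the *Vegfa* difference was not tested.

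The glycolytic members *Hk2* and *Pfkfb3* had the lowest levels. *Hk2*, the gene of a hexokinase that is nearly absent from healthy hepatocytes, had 0.814, 0.825 and 0.744 TPM in FGL00 and 1.09, 1.26 and 1.54 TPM in FGL40. In males it had 0.838, 1.78 and 0.859 TPM in MGL00 and 0.589, 0.424 and 0.571 TPM in MGL40. GL00 was below GL40 in females and above it in males, without overlap in either sex. Neither difference was called by itself (log2FC -0.35, adjusted p = 0.117 in females; 0.47, adjusted p = 0.0815 in males), but the difference between the sexes was (females minus males -0.82, SE 0.23, adjusted p = 0.0176), where 13.6% of all genes were called. It was the only one of the 10 genes with such a call, which was lost without MGL00-2784, the liver at 1.78 TPM (-0.63, adjusted p = 0.0679). *Pfkfb3*, whose enzyme makes the activator of phosphofructokinase, had 1.90, 4.21 and 3.62 TPM in FGL00 and 1.97, 2.45 and 2.43 TPM in FGL40, and 3.01, 5.56 and 2.58 TPM in MGL00 and 2.94, 1.95 and 2.85 TPM in MGL40. The groups overlapped, and the log2FC was 0.33 in females (interval -0.11 to 0.77) and 0.36 in males (interval -0.11 to 0.83). Without FGL00-2788, the liver at 1.90 TPM, *Pfkfb3* was called in females (log2FC 0.58, adjusted p = 0.0424).

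Between the sexes, with all treatments in the model, *Egln2* (log2FC females over males 0.15, adjusted p = 0.00051), *Hk2* (0.27, adjusted p = 0.00521), *Hif1an* (0.11, adjusted p = 0.00645) and *Vegfa* (0.12, adjusted p = 0.0447) were higher in females, that is 4 of 10 genes, where 44% of all genes were called, 36.6% as higher in females, and the median log2FC of all genes was 0.07. The mean level of *Egln2* was 60.3 ± 4.70 TPM over the females and 54.1 ± 4.14 TPM over the males (SD, n = 18 each), and that of *Hk2* was 1.03 ± 0.292 TPM and 0.693 ± 0.337 TPM. With median-ratio scaling in place of the fixed TPM sum, only *Hk2* of these remained called, *Egln2* fell to 0.02, and *Hif1an* and *Vegfa* turned to -0.01 and -0.02. The *Vegfa* call was also lost in 20 of the 36 fits that left out 1 mouse (adjusted p up to 0.0798) and without a filter on low values (adjusted p = 0.0624). Kupffer cell markers were higher in females for 12 of 12 genes and endothelial markers for 8 of 10. So were 7 of 10 stellate cell and fibroblast, 6 of 7 neutrophil and 4 of 8 cholangiocyte markers, and none of these 5 lists had a lower one. Of 10 hepatocyte markers 3 were higher and 1 lower, and of 7 erythroid markers 2 were higher and 1 lower. The part of these cells in the sex differences was not tested.

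Genes of the same pathway outside the 10 were counted in 3 lists for GL00 over GL40. Of the 15 regulators of HIF tested, none rose and 3 fell in females, and 2 rose and 1 fell in males, with median log2FCs of -0.03 and 0.10 beside -0.02 and 0.07 for all genes. Of all genes, 9.56% were higher and 13.7% lower in females and 9.85% higher and 2.45% lower in males. *Cited2*, whose product competes with HIF for the coactivator p300, fell in both sexes. It had 10.97, 10.1 and 10.7 TPM in FGL00 and 24.3, 25.6 and 24.5 TPM in FGL40 (log2FC -1.15, SE 0.17, adjusted p = 0.000328). In males it had 12.3, 10.97 and 12.3 TPM in MGL00 and 21.7, 19.4 and 19.3 TPM in MGL40 (log2FC -0.72, adjusted p = 0.00183). The livers of FGL01 (11.4 to 17.9 TPM), FGL05 (16.9 to 19.3 TPM) and FGLR40 (18.2 to 22.5 TPM) also lay below FGL40. Those of MGL01 (12.8 to 16.1 TPM), MGL05 (14.1 to 17.7 TPM) and MWT00 (13.7 to 16.6 TPM) lay below MGL40. Only the difference of FGL01 was called. A level below GL40 was thus not particular to GL00. *Cited2* was lower in FGL00 than in FWT00 (adjusted p = 0.000763). MGL00 lay below MWT00 without overlap, but that difference was not called. *Eloc*, an elongin subunit of the VHL ligase, fell in females (-0.42, adjusted p = 0.0435), a call lost in 5 of the 6 fits that left out 1 mouse (all but that without FGL40-2695) and without a filter on low values (adjusted p = 0.0652). *Os9*, a lectin of endoplasmic reticulum quality control that was also described as a partner of HIF, rose in males (0.36, adjusted p = 0.0161), a call lost with median-ratio scaling (adjusted p = 0.155) and without MGL40-2691 or MGL40-2719.

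*Epas1*, the gene of the alpha subunit HIF2A, moved in opposite directions. It had 40.5, 47.1 and 47.7 TPM in FGL00 and 57.7, 50.7 and 67.3 TPM in FGL40, and 72.3, 78.6 and 61.2 TPM in MGL00 and 43.7, 49.1 and 41.8 TPM in MGL40. The groups did not overlap in either sex. The log2FC was -0.36 in females (SE 0.12, adjusted p = 0.0329) and 0.64 in males (SE 0.14, adjusted p = 0.00927), and the difference between the sexes was -1.004 (SE 0.19, adjusted p = 0.000691). The fall in females was lost with median-ratio scaling (adjusted p = 0.0699), without FGL00-2788, FGL40-2694 or FGL40-2696 (adjusted p = 0.0754 to 0.153), and in a fit of only these 2 groups (adjusted p = 0.0602). The rise in males was lost with median-ratio scaling (adjusted p = 0.0505). FGL01 was also lower than FGL40 (log2FC -0.41, adjusted p = 0.0221). FGL00 overlapped with FWT00 (47.4 to 53.9 TPM), and neither FGL00 over FWT00 nor FGLR40 over FGL00 was called. MGL00 was higher than MWT00, at 36.9 to 50.8 TPM (log2FC 0.71, adjusted p = 0.0052). MGLR40 was lower than MGL00 (log2FC -0.66, adjusted p = 0.0106). *Epas1* is also expressed by endothelium. Of 10 sinusoidal endothelial markers, 2 were higher and 2 lower in females and 2 were higher and none lower in males for GL00 over GL40, 4 had a more negative effect in females, and the summed levels were 137 to 264 TPM in FGL00, 215 to 234 TPM in FGL40, 196 to 223 TPM in MGL00 and 134 to 191 TPM in MGL40. Their part in the *Epas1* difference was not tested.

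The 20 glycolytic targets moved in both directions. In females 2 rose and 3 fell, in males 1 rose and 3 fell, and the medians were 0.01 and -0.02. The 5 and 4 genes called of 20 stand beside 23.2% and 12.3% of all genes called. *Pkm*, the pyruvate kinase gene of non-hepatocytes and growing cells, rose in both sexes (0.84, adjusted p = 0.00498 in females; 0.66, adjusted p = 0.00175 in males). *Ldha*, the lactate dehydrogenase gene, rose in females from 570 ± 8.43 to 988 ± 169 TPM (0.78, adjusted p = 0.00621). FGLR40, which had received ascorbate again, had 993 ± 93.1 TPM and was also higher than FGL40 (0.79, adjusted p = 0.0393). A level of *Ldha* above FGL40 was thus not particular to the females without ascorbate. FGL00 (834 to 1168 TPM) lay above FWT00 (621 to 752 TPM) without overlap, but that difference was not called. *Gbe1*, the glycogen branching enzyme gene, fell in females from 52.2 ± 8.36 to 25.6 ± 3.20 TPM (-0.99, adjusted p = 0.0011), as did *Pgam1* (-0.33, adjusted p = 0.011). *Gapdh* fell in both sexes (-0.27, adjusted p = 0.0324 in females; -0.49, adjusted p = 0.00276 in males). Its call in females was lost without FGL00-2788, FGL00-2790, FGL40-2694 or FGL40-2696 (adjusted p = 0.0582 to 0.143) and with median-ratio scaling (adjusted p = 0.0848). The enolase gene *Eno1* (-0.47, adjusted p = 0.048) and the phosphoglycerate kinase gene *Pgk1* (-0.23, adjusted p = 0.0459) fell in males, both calls being lost without filter on low values (adjusted p = 0.0734 and 0.0526) and on leaving out most single mice (5 of 6 for *Eno1*, all but MGL40-2691, and 6 of 6 for *Pgk1*). That of *Pgk1* was also lost in a fit of only these 2 groups (adjusted p = 0.0753). With median-ratio scaling 7 rather than 4 of the 20 were called in males.

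Among other hypoxia targets, 9 of 31 rose and 2 fell in females, and 3 of 30 rose and 2 fell in males, with medians of 0.048 and 0.21. The count of 5 called in males became 3 without MGL00-2787 and 3 without MGL40-2691. These counts stand beside the same shares of all genes. The transferrin receptor gene *Tfrc*, which is also high in erythroid precursors, rose in both sexes (1.48, adjusted p = 0.000717 in females; 0.92, adjusted p = 0.0236 in males, lost without MGL00-2787, MGL40-2691 or MGL40-2719). The haem oxygenase gene *Hmox1* rose in both sexes as well (1.41, adjusted p = 0.00181; 0.78, adjusted p = 0.0408), but the call in males was lost in 5 of the 6 fits that left out 1 mouse (all but that without MGL40-2719, adjusted p = 0.0616 to 0.167), with median-ratio scaling (adjusted p = 0.0949) and without a filter on low values (adjusted p = 0.067). *Hilpda*, the gene of a lipid droplet protein that inhibits the lipase encoded by *Pnpla2*, rose in females from 2.73 ± 0.589 to 9.80 ± 3.97 TPM (1.49, adjusted p = 0.00121). *Ddit4*, a gene induced by stress and fasting, rose in males (1.09, adjusted p = 0.00743). In females FGL00 (7.60 to 11.9 TPM) overlapped with FGL40 (5.38 to 10.1 TPM). *Ddit4* was higher in FGL00 than in FWT00 (0.63, adjusted p = 0.0445) and lower in FGLR40 than in FGL00 (-0.74, adjusted p = 0.0241). The difference between the sexes in GL00 over GL40 was not called (adjusted p = 0.0884). *Ndrg1*, a HIF target in many cell lines, fell in both sexes (-1.32, adjusted p = 0.00969; -0.91, adjusted p = 0.00402). *Plin2*, which encodes a coat protein of lipid droplets, had 299.7, 360.3 and 367 TPM in MGL00 and 439.95, 671 and 690.05 TPM in MGL40 (-0.79, adjusted p = 0.00789), and the groups did not overlap.

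Markers of other cells moved in the same comparisons. In females 5 of 7 erythroid and 7 of 8 neutrophil markers were higher in FGL00 than in FGL40 and none was lower, with summed levels of 1933 to 3428 TPM against 627 to 754 TPM and of 48.3 to 96.5 TPM against 13.7 to 17.0 TPM, while none of 12 Kupffer cell markers was called. In males 8 of 12 Kupffer cell and 1 of 6 neutrophil markers were higher in MGL00 than in MGL40, and 1 of 7 erythroid markers was lower. Their part in the changes of *Tfrc*, *Hmox1*, *Pkm* and the other genes of the 3 lists was not tested.

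**Figure D5:**
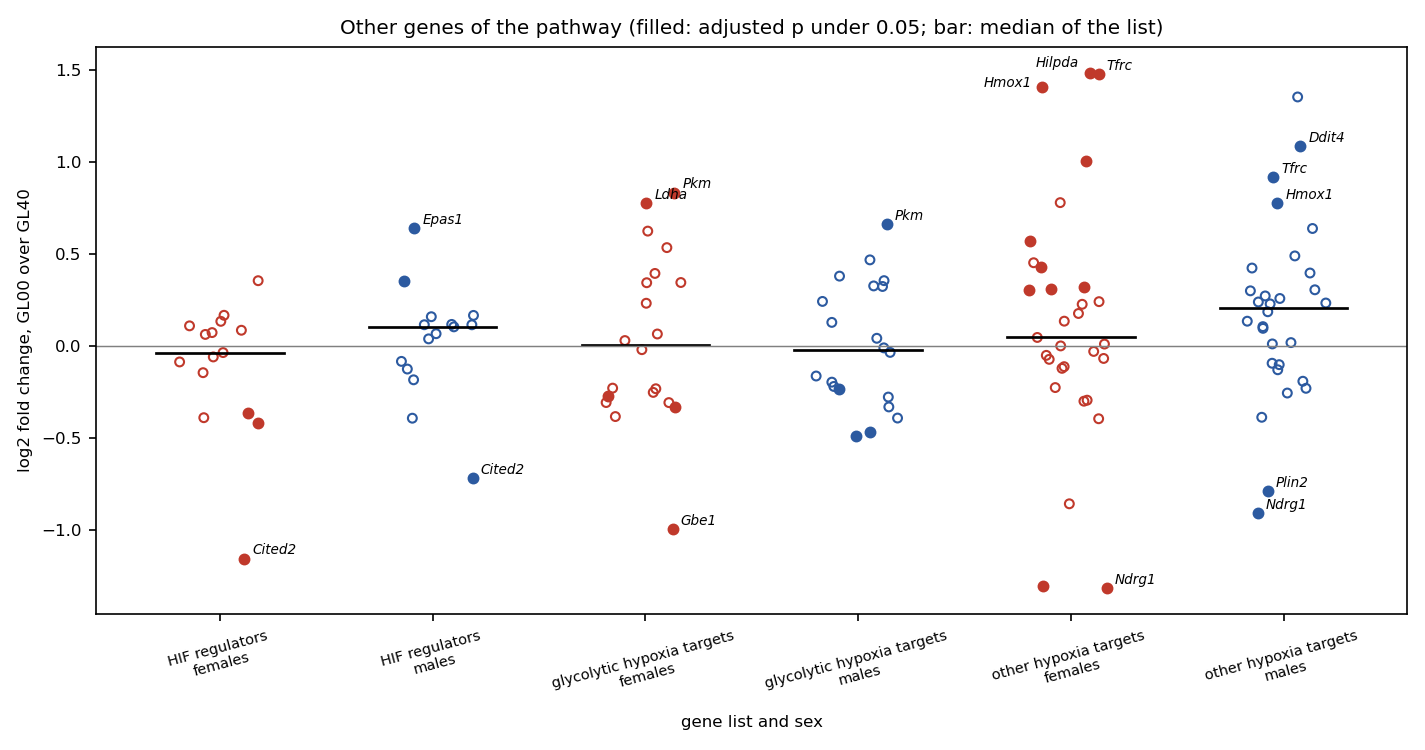
Log2 fold change of GL00 over GL40 (y axis) for each tested gene of 3 lists of other pathway genes in females (red) and males (blue); filled points have an adjusted p under 0.05, bars are list medians, and named genes beyond 0.6 are labelled. The medians lay between -0.03 and 0.21, and called genes lay on both sides of 0 in 5 of the 6 columns, the exception being the regulators in females with falls alone.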

How the data were processed

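The deposited values are TPM per gene for 36 mouse livers. Per the labels and the study's methods, the authors selected poly(A) RNA, made directional libraries, trimmed reads with fastp 0.20.0 and quantified them with kallisto 0.46.2 against Ensembl transcripts, and they deposited TPM, which sum to the same total in each mouse. The step from transcripts to genes is not given in the sources used here. Depth is not contained in TPM, so no count model was used. Genes above 0 TPM numbered 18701 to 20093 per mouse.

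Differences were tested on log2(TPM + 1) in R 4.3.3 with the limma package (version 3.58.1, statmod 1.5.0), using 1 mean per group, mean-variance trend and robust variances, in the 18 mice of each sex, over genes above 0 TPM in at least 13 of 18 mice (18050 in females, 17661 in males). The sex difference (sex and treatment as terms) and the interaction of sex with GL00 over GL40 used 36 mice and 17881 genes above 0 TPM in at least 25. The script was tested on simulated data. Mice were grouped by the animal name in their title and the sex and genotype labels. The title of MGLR40-2831 also says female, and it was taken as male by its name and sex label. The animal numbers do not pair mice across groups.

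The 10 genes, the lists and the rule for named genes were chosen with earlier results of these data known. Named were the 10 genes, from each list and sex the 4 largest changes past the test for GL00 over GL40 with at least 1 TPM in the higher group, the 3 genes whose log2(TPM + 1) correlated most with *Bnip3*, and *Gulo* and *Ddx3y*. From these lists 1 gene was left out and is not reported here. Alternatives were median-ratio scaling, a pseudocount of 0.1, no filter, TPM of at least 1 in 3 mice, only the 2 groups compared, and leaving out each mouse. Promoter windows came from RefSeq (GRCm38.p6) and were matched by symbol.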

Additional observations from a re-analysis of the deposited data

Results flagged for a closer look

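Each of the 9 genes below had an effect of GL00 over GL40 that differed between females and males by the interaction term of limma at an adjusted p under 0.05. The difference of log2FC (females minus males) was -0.82 for *Hk2* (SE 0.23, adjusted p = 0.0176), where all 3 GL00 livers were below the GL40 livers in females and above them in males, at levels of 0.424 to 1.78 TPM. It was lost without MGL00-2784 (-0.63, adjusted p = 0.0679).

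The difference was -1.004 for *Epas1* (adjusted p = 0.000691), and it stayed called in all 12 fits that left out 1 mouse (-1.103 to -0.90). It was 1.298 for *Hilpda* (SE 0.33, adjusted p = 0.00908), which had 6.80 to 14.3 TPM in FGL00, 2.08 to 3.22 TPM in FGL40, 3.63 to 4.26 TPM in MGL00 and 2.87 to 3.57 TPM in MGL40, and it also stayed called in all 12 such fits (1.02 to 1.502). It was 0.30 for *Pgk1* (SE 0.10, adjusted p = 0.0417), lost in 10 of 12 such fits and without a filter on low values (adjusted p = 0.0504). This term called 1 of 15 regulators, 2 of 20 glycolytic targets and 5 of 30 other targets, beside 13.6% of all genes.

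The remaining 5 of these list genes lie outside the rule for named genes and were chosen by this term after their values were seen. The largest difference of the 9 was that of *Vldlr*, the gene of the very low density lipoprotein receptor, at -1.942 (SE 0.39, adjusted p = 0.00131), with 1.79 ± 0.369 TPM in FGL00, 5.86 ± 0.723 TPM in FGL40, 2.65 ± 0.25 TPM in MGL00 and 1.35 ± 0.28 TPM in MGL40. It stayed called in all 12 fits that left out 1 mouse (-2.039 to -1.846). The difference was -0.74 for *Gys1* (adjusted p = 0.0176), 0.56 for *Bnip3l* (adjusted p = 0.0237), 0.41 for *Higd1a* (adjusted p = 0.0219) and -0.63 for *P4ha1* (adjusted p = 0.0375). These calls were lost in 3, 5, 5 and 7 of 12 such fits (adjusted p up to 0.0685, 0.0625, 0.0756 and 0.131), and with median-ratio scaling those of *Gys1* and *P4ha1* were lost (adjusted p = 0.0563 and 0.117), that of *P4ha1* also without a filter on low values (adjusted p = 0.0531). The mice without which a call was lost were FGL40-2694, MGL00-2787 and MGL40-2691 for *Gys1*, FGL40-2696, MGL00-2783, MGL00-2787, MGL40-2690 and MGL40-2719 for *Bnip3l*, FGL00-2788, FGL40-2695, MGL00-2783, MGL00-2784 and MGL40-2690 for *Higd1a*, and FGL00-2788, FGL40-2694, FGL40-2695, MGL00-2783, MGL00-2784, MGL40-2691 and MGL40-2719 for *P4ha1*.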

How the results depend on the processing

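TPM are shares of a fixed sum and keep no depth, so no counting error can be given, and 3 mice per group limit the precision. A pseudocount of 0.1 and a minimum of 1 TPM in 3 mice changed none of the 18 counts of called members nor the calls of the values recomputed. No paired analysis was possible because each animal number occurs in only 1 group.

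With median-ratio scaling, the count of called members became 0 for MGL00 over MGL40 (*Bnip3* 0.29, adjusted p = 0.131), 2 for MGL01 over MGL40 (*Vegfa* and *Bnip3*), 2 for females over males (*Hif1a* and *Hk2*) and 2 for the interaction of sex with GL00 over GL40 (*Hk2* and *Bnip3*). The sign turned for 6 values of members, to 0.0079 for *Egln1* and 0.038 for *Egln2* in FGL00 over FGL40, to -0.10 for *Hif1a* and -0.029 for *Slc2a1* in MGL00 over MGL40, and to -0.010 for *Hif1an* and -0.015 for *Vegfa* in females over males. This scaling moved the median of all genes by less than 0.1 in each comparison, and that of genes that averaged 5 TPM or more by up to 0.18 (the interaction). Without a filter on low values, more genes were tested and the count became 1 for FGLR40 over FGL00 (*Slc2a1*), 1 for any difference among males (*Egln3*) and 0 for MGL00 over MGL40 (*Bnip3* adjusted p = 0.0611). With only the 2 groups compared, which leaves fewer mice, it became 2 for FGLR40 over FGL40 (*Bnip3* and *Slc2a1*), 0 for MGL00 over MGL40, 0 for MGL01 over MGL40 (*Bnip3* adjusted p = 0.155), 0 for MWT00 over MGL40 and 1 for MGL00 over MWT00 (*Egln3*).

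On leaving out each mouse in turn, the count was 3 to 4 for any difference among females, 1 to 3 among males, 1 to 2 for FGL00 over FGL40, 1 to 1 for FGLR40 over FGL00, 3 to 4 for FGL00 over FWT00, 3 to 5 for females over males, 0 to 2 for the interaction, 0 to 1 for MGL00 over MGL40, MGLR40 over MGL00 and MWT00 over MGL40, and 1 to 2 for MGL00 over MWT00. It was 1 to 1 for FGL01 over FGL40 and MGL01 over MGL40 and 0 to 0 for the other comparisons. The log2FC of GL00 over GL40 changed sign for *Egln2* (-0.086 to 0.057), *Egln3* (-0.17 to 0.039) and *Hif1an* (-0.0018 to 0.091) in females and for *Hif1a* (-0.036 to 0.076) and *Slc2a1* (-0.026 to 0.21) in males, none of them called. *Bnip3* in FGL00 over FGL40 stayed between 0.86 and 0.97 (adjusted p up to 0.00311), and without FGL40-2695 it was 0.93.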
